A study of Mus musculus with 12 samples.

Results

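Muscle progenitors sorted from postnatal muscle were set against muscle progenitors sorted from developing tissue. The comparison used all 12 libraries of the series by their labels. The 6 libraries of the postnatal class were 3 of a Transplant and 3 of an Adult group, and the 6 of the developing class were 3 of a Teratoma and 3 of an Embryo group. Transplant cells were recovered from the tibialis anterior, a shin muscle, 1 month after cells sorted from teratomas had been placed there. Adult cells came from the hindlimbs of 8-week-old males. Teratoma cells came from teratomas, mixed-tissue tumours formed by pluripotent stem cells, at 3 weeks of age. Embryo cells came from E14.5 mouse embryos taken whole. Every library carried the strain label 129P2/OlaHsd, and every cell was sorted as positive for α7-integrin and VCAM and negative for the endothelial antigen CD31 and the leukocyte antigen CD45. The labels name neither the host of the transplants nor a marker that would part donor from host cells. The series title concerns the making of muscle stem cells from pluripotent cells.

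Each class thus held 1 stem-cell-derived and 1 native group, and the step into postnatal muscle could be measured separately in each origin. Transplant against Teratoma gave the stem-cell-derived pair and Adult against Embryo the native pair, and these pairs have no library in common. Because one native group was taken from the entire body and the other from hindlimbs, in that pair stage and body site cannot be told apart. In bulk RNA, fewer cells of a type and less RNA per cell cannot be told apart either.

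Satellite cells are the resident stem cells of skeletal muscle, and in undamaged adult muscle they lie quiescent between the fibre and its basement membrane. Their fetal forerunners divide and build the muscle. In many mammalian tissues growth slows after birth while a set of imprinted and fetal growth genes is turned down. In cells that have left the cycle, the DREAM repressor complex holds down genes of mitosis, whose promoters often carry a cell cycle homology region (CHR) together with CCAAT boxes.

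Levels are given in FPKM, fragments normalized for transcript length and library size, and changes as differences of mean log2(FPKM + 1), which understates changes of low genes. Tests were limma's moderated tests across 12699 genes with Benjamini-Hochberg adjustment, and calls were made at adjusted p-values under 0.05. Read depth was unknown. Genes at 1 FPKM or more numbered 9495 to 10832 in postnatal and 10509 to 12000 in developing libraries. Small and ribosomal RNA took 59.4% to 97.7% of the FPKM sum in postnatal libraries and 39.2% to 97.6% in developing ones. Embryo replicate 2 held 74 isolated zeros, genes listed at 0 there although both libraries of the same group had at least 5 FPKM, while the other 11 libraries held 6 to 27. The series text calls the replicates biological without naming separate animals, so the tests measure only how these libraries vary.

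The genes of the sorted antigens and 4 core muscle regulators did not separate the classes. Itga7, which encodes α7-integrin, had 34.9, 39.03 and 55.5 FPKM in Transplant and 61.6, 61.8 and 62.6 in Adult libraries, against 48.2, 43.3 and 40.2 in Teratoma and 10.6, 9.73 and 10.8 in Embryo libraries. Transplant and Teratoma libraries overlapped at this gene, and each Adult library lay above each Embryo library. Vcam1 had 68.7, 91.6 and 87.7 FPKM in Transplant and 106, 117 and 83.9 in Adult libraries, against 119.7, 82.8 and 66.7 in Teratoma and 48.8, 57.7 and 52.4 in Embryo libraries, and again the stem-cell-derived pair overlapped. Pax7, the satellite cell transcription factor, had 39.8, 32.3 and 54.8 FPKM in Transplant and 8.24, 9.02 and 10.1 in Adult libraries, against 25.5, 23.5 and 20.1 in Teratoma and 14.7, 14.3 and 13.1 in Embryo libraries. It was higher in Transplant than in Teratoma (log2 change 0.82, limma adjusted p = 0.0103) and lower in Adult than in Embryo (-0.58, adjusted p = 0.0238), but with median-ratio scaling the native pair did not pass (adjusted p = 0.767) while the stem-cell-derived pair did (adjusted p = 0.00237). Myf5, a myogenic determination factor, averaged 57.996 ± 8.72 FPKM in Transplant and 41.99 ± 4.62 in Adult, against 55.1 ± 14.51 in Teratoma and 12.7 ± 2.50 in Embryo (SD, n = 3 here and below). Myod1, another, averaged 41.6 ± 13.3 FPKM in Transplant and 403 ± 52.7 in Adult, against 50.4 ± 12.6 in Teratoma and 18.2 ± 6.35 in Embryo. Both were higher in Adult than in Embryo by 1.67 and 4.45 (adjusted p = 3.3e-05 and 2.32e-07), with changes of 0.09 and -0.28 in the stem-cell-derived pair that did not pass (adjusted p = 0.783 and 0.524). Myog, which drives terminal differentiation, was lower in Adult than in Embryo by a log2 change of -2.22 (adjusted p = 0.000406) and at 0.48 in the other pair (adjusted p = 0.405). For all 4 of these regulators and for Itga7 and Vcam1 the 2 pairs differed from each other by limma's test of the difference (adjusted p at most 0.0189). Of the 15 tested genes in the list of myogenic regulators, Tcf12, which encodes an E protein partner of MyoD, did separate the classes, at 18.02 ± 1.62 FPKM in Transplant and 10.3 ± 1.85 in Adult, against 31.6 ± 9.40 in Teratoma and 41.4 ± 6.67 in Embryo. Its lower level was called in both pairs (adjusted p = 0.0284 and 1.64e-05), but the stem-cell-derived call was lost with median-ratio scaling, with quantile normalization and without Transplant replicate 1 or 3 or Teratoma replicate 1 (adjusted p up to 0.149, lowest 0.0229). Of the excluded antigens, Pecam1 (CD31) read 1.96 ± 0.485 FPKM in Transplant and 3.34 ± 1.35 in Adult, against 7.08 ± 2.22 in Teratoma and 3.68 ± 4.07 in Embryo, and Ptprc (CD45) did not reach the filter of 1 FPKM in 3 libraries.

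Averaged over both origins, 1339 genes were higher in postnatal libraries (10.5% of those tested) and 4768 were lower (37.5%). Transplant against Teratoma gave 531 higher (4.18%) and 2343 lower genes (18.5%), and Adult against Embryo gave 2007 higher (15.8%) and 4692 lower genes (36.9%). Part of this tilt moved with the scale of the libraries. Scaling factors from median ratios of the FPKM were 0.816 to 0.978 in postnatal libraries and 1.10 to 1.33 in developing ones, and the median change of all genes was -0.34 with the deposited values and -0.01 after median-ratio scaling. Of the called genes 21.9% were higher with the deposited values, 49.4% after median-ratio scaling and 49.6% after quantile normalization. Whether the developing cells held more of most messages or were only scaled higher cannot be told apart from FPKM. The counts of the stem-cell-derived pair fell whenever any 1 of its own libraries was left out, to 325 to 419 higher and 1199 to 1944 lower genes. A fit without 1 library of the pair also has less power. The higher genes numbered 336 without Transplant replicate 1, 342 without Transplant replicate 2 and 325 without Teratoma replicate 1. The lower ones numbered 1467 without Transplant replicate 1 and 1199 without Teratoma replicate 1.

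A gene was taken to separate the classes where all 6 postnatal libraries lay on one side of all 6 developing libraries. There were 159 such genes with postnatal libraries higher (1.25%) and 1410 with postnatal libraries lower (11.1%). Genes that separated the classes and were also called in the same direction in both pairs are termed shared genes below. These numbered 101 higher (0.795%) and 915 lower (7.21%), and the lower ones numbered 594 without Teratoma replicate 1. Median-ratio scaling gave 241 higher (1.9%) and 432 lower genes (3.4%). Genes shared under the deposited values, median-ratio scaling and quantile normalization together, a count added after the data were seen, numbered 98 higher (0.772%) and 347 lower (2.73%). Of the 101 and 915 genes, 68 and 331 were shared under these 3 scalings and in each of the 12 fits that left out 1 library.

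**Figure D1:**
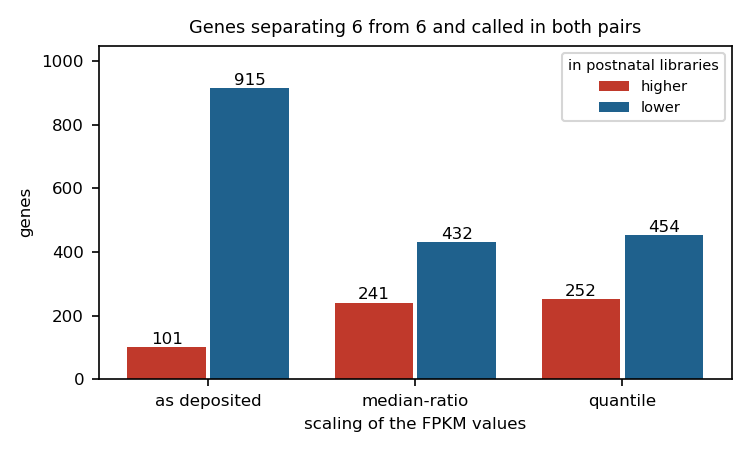
Numbers of genes that separated all 6 postnatal from all 6 developing libraries and were called in both pairs, higher (red) and lower (blue) in postnatal libraries, under 3 scalings of the FPKM values. The lower genes outnumbered the higher ones under each scaling, 915 to 101 with the deposited values and 432 to 241 with median-ratio scaling.

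The 2 pairs moved in the same direction at some genes and apart at many others. Genes called higher in both pairs numbered 202, which was 38.04% of those higher in Transplant and 10.1% of those higher in Adult. Genes called lower in both numbered 1101, or 47.0% of those lower in Transplant and 23.5% of those lower in Adult. Another 119 genes higher in Transplant than in Teratoma were lower in Adult than in Embryo, and 382 genes were the reverse. Across the 12699 genes the changes of the pairs correlated with r = 0.25, as a description across genes that are not independent. The pairs differed from each other by limma's test at 4944 genes (38.9%). Of the 101 shared higher genes 60 were among these, 58 with the larger change in the native pair, and of the 915 shared lower genes 402 were, 386 with the larger change in the native pair. The shared higher genes had median changes of 1.30 for Transplant against Teratoma and 2.78 for Adult against Embryo, and the shared lower genes -1.15 and -1.99.

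**Figure D2:**
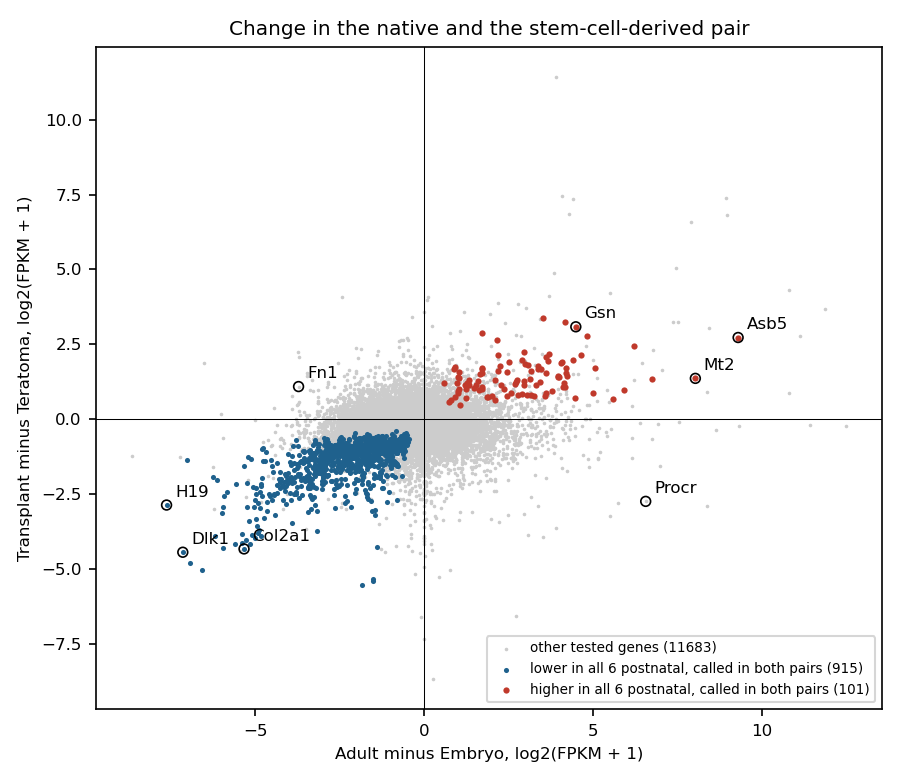
Change of each of the 12699 tested genes in the native pair (horizontal axis, Adult minus Embryo) and the stem-cell-derived pair (vertical axis, Transplant minus Teratoma), as differences of mean log2(FPKM + 1). Red points are the 101 shared higher genes and blue points the 915 shared lower genes. Circles mark named genes, with Fn1 and Procr among those that moved in opposite directions.

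Of the lists examined, those of the cell cycle held the most shared lower genes. All 38 tested genes of the G2 and M phase list were lower in postnatal libraries, with a median change of -2.83 against -0.34 for all genes, and 37 of them were shared. All 37 tested genes of S phase and replication were lower as well (median -2.31), 29 of them shared. Of 54 replication histone genes 53 were lower and none higher (median -3.46), and 36 were shared. The near-identical histone copies make single members uncertain. Together these lists held 102 of the 915 shared lower genes and 81 of the 347 shared under 3 scalings, beside 129 of all 12699 genes tested.

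Among mitotic genes, Cdk1, the kinase that drives entry into mitosis (chromosome 10 from 69335146 to 69352938 in mm10), had 1.88, 0.828 and 0.745 FPKM in Transplant and 0.0687, 0.527 and 0 in Adult libraries, against 14.6, 15.1 and 14.4 in Teratoma and 34.01, 42.5 and 36.6 in Embryo libraries. Every postnatal library lay far below every developing one, and the log2 changes ± SE were -2.91 ± 0.25 for Transplant against Teratoma and -5.03 ± 0.25 for Adult against Embryo (limma adjusted p = 2.18e-05 and 3.96e-08). Top2a, the topoisomerase that untangles replicated chromosomes, had 1.78, 2.08 and 3.22 FPKM in Transplant and 2.18, 2.13 and 0.6252 in Adult libraries, against 31.9, 20.6 and 22.7 in Teratoma and 60.8, 77.3 and 80.7 in Embryo libraries. Birc5, which encodes the chromosomal passenger survivin, had 1.71, 0.827 and 0.806 FPKM in Transplant and 0.320, 0.431 and 0.655 in Adult libraries, against 16.3, 15.7 and 12.3 in Teratoma and 47.5, 65.6 and 50.9 in Embryo libraries. For both genes the highest postnatal library lay several-fold below the lowest developing one. Ube2c, the ubiquitin-conjugating enzyme of the anaphase-promoting complex, averaged 4.04 ± 1.58 FPKM in Transplant and 3.11 ± 2.63 in Adult, against 30.7 ± 6.29 in Teratoma and 117 ± 21.2 in Embryo, with changes of -2.68 ± 0.38 for Transplant against Teratoma and -5.02 ± 0.38 for Adult against Embryo (adjusted p = 0.000614 and 7.56e-07).

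The replication genes moved likewise. Mcm6 and Mcm2 encode subunits of the replicative helicase. Mcm6 had 2.05, 1.93 and 2.47 FPKM in Transplant and 0.351, 0.539 and 1.57 in Adult libraries, against 25.3, 15.3 and 22.3 in Teratoma and 57.4, 54.9 and 43.6 in Embryo libraries. Mcm2 had 2.11, 2.10 and 1.68 FPKM in Transplant and 1.02, 0.376 and 0.0347 in Adult libraries, against 17.5, 16.9 and 22.5 in Teratoma and 30.96, 36.4 and 37.2 in Embryo libraries. Ccne1, the G1/S cyclin E1, averaged 4.42 ± 1.58 FPKM in Transplant and 0.558 ± 0.396 in Adult, against 22.4 ± 3.36 in Teratoma and 75.8 ± 32.6 in Embryo, and each Transplant library lay above each Adult library. Pold2, a subunit of DNA polymerase delta, was listed at 0 in all 6 postnatal libraries, against 12.2, 12.6 and 14.1 FPKM in Teratoma and 30.5, 35.1 and 23.7 in Embryo libraries. Because an exact 0 can be a failed estimate in this table, no fold is given for it. Among histones, Hist1h1b, a linker histone, averaged 5.28 ± 4.76 FPKM in Transplant and 3.08 ± 1.44 in Adult, against 103 ± 18.1 in Teratoma and 244 ± 33.5 in Embryo. The linker histone Hist1h1a had 0.659, 0.330 and 4.79 FPKM in Transplant and 0.647, 1.39 and 1.37 in Adult libraries, against 93.4, 68.8 and 64.6 in Teratoma and 226, 258 and 141 in Embryo libraries. Hist1h2ak, an H2A gene, changed by -4.80 in the stem-cell-derived and -6.93 in the native pair (adjusted p = 0.000123 and 8.13e-07). The origins differed at Cdk1, Top2a, Birc5, Ube2c, Mcm6, Mcm2 and Ccne1 (adjusted p at most 0.00521), each with the larger change in the native pair. The brakes of the cycle did not form a shared group: of 18 tested CDK inhibitors and related genes 7 were higher and 2 lower, with a median of 0.13. None was shared as higher, and Rbl1, a pocket protein of the DREAM complex, was shared as lower. The CDK inhibitor Cdkn1c was not on this list and was shared as lower too, with values given below.

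Promoters of these genes are shown because cell cycle motifs recur in them. RefSeq promoters on GRCm38.p6 (mm10), 250 bases before to 50 bases after the start, were matched for 9971 of the 12699 tested symbols. The capitals mark CHR elements (TTTGAA) and CCAAT boxes in the first 3 promoters, and these and a TATA box (TATAAA) in the fourth, on either strand. In Ube2c a CCAAT box overlaps its own reverse complement, and both are counted.
Cdk1, chr10:69352863-69353162, minus strand: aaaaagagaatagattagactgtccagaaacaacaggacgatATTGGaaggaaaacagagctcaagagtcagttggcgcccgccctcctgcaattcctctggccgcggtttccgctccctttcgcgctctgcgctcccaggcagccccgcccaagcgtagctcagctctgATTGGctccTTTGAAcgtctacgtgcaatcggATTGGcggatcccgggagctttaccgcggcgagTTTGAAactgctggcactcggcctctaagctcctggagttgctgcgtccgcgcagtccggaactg
Top2a, chr11:99024140-99024439, minus strand: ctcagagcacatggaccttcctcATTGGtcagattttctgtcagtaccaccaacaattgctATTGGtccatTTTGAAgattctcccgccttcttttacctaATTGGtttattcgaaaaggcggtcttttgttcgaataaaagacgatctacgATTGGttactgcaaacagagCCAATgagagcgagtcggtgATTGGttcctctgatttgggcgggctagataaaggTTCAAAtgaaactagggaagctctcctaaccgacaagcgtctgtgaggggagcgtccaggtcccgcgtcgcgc
Ube2c, chr2:164769679-164769978, plus strand: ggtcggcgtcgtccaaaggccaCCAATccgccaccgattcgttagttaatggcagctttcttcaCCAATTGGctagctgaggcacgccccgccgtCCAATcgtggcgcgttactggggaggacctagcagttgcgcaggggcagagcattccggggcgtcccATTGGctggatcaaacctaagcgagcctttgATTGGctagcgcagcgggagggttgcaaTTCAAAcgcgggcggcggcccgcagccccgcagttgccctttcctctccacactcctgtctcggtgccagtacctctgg
Hist1h1b (H1f5 in RefSeq), chr13:21780576-21780875, minus strand: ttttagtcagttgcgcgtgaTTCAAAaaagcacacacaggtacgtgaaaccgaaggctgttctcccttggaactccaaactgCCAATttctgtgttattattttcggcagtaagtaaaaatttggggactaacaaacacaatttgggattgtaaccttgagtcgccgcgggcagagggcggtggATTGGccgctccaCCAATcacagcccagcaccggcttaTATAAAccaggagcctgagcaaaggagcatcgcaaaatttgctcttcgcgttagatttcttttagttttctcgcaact
The Cdk1 and Top2a promoters each hold 2 CHR elements, a number reached by 1.09% of all tested promoters, with 3 and 6 CCAAT boxes. Ube2c has 1 CHR and 6 CCAAT boxes, and 0.160% of promoters hold 6 or more CCAAT boxes.

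Over all matched promoters, 11.8% held a CHR element, 39.1% a CCAAT box, 5.06% both and 7.45% a TATA box. Among the shared G2 and M phase genes 21 of 31 promoters (67.7%) held a CHR, 23 (74.2%) a CCAAT box and 18 (58.1%) both. Shared S phase genes were near the level of all genes for the CHR, at 3 of 24 promoters (12.5%), and at 13 of 24 (54.2%) for CCAAT. Of 33 promoters of shared histone genes 28 (84.8%) held a CCAAT box, 15 (45.5%) a CHR and 23 (69.7%) a TATA box, and the same 15 held both CHR and CCAAT. The shared lower genes as a whole had a CHR in 19.3% of 735 promoters, rising to 29.5% of 278 for those shared under 3 scalings, and the shared higher genes in 9.59% of 73. A match of letters is a description and not a test of binding. The promoters shown were picked for their motifs. Of the 38 G2 and M phase genes 37 were shared, so their shares describe that list and not the postnatal change. The cell cycle lists held 102 of the 915 shared lower genes and 81 of the 347 shared under 3 scalings, so the 2 CHR shares of these sets hold unlike parts of cell cycle genes.

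Imprinted growth genes were mostly lower. Of 24 tested members 1 was higher and 18 were lower in postnatal libraries (median -1.48), with 10 shared lower and 8 of these shared under 3 scalings. The higher one, Dcn, which encodes the proteoglycan decorin, was shared with the deposited values but not under all 3 scalings. Dlk1, a paternally expressed Notch-ligand-like membrane protein (chromosome 12 from 109452823 to 109463336), had 10.5, 3.49 and 5.44 FPKM in Transplant and 0.760, 0.492 and 2.03 in Adult libraries, against 159.9, 132 and 154 in Teratoma and 304, 238 and 312 in Embryo libraries. The postnatal libraries lay far below the developing ones in both pairs, and the log2 changes were -4.43 ± 0.32 for Transplant against Teratoma and -7.15 ± 0.32 for Adult against Embryo (limma adjusted p = 1.09e-05 and 2.51e-08). H19, a maternally expressed noncoding RNA (chromosome 7 from 142575529 to 142578143), had 0.986, 1.09 and 1.44 FPKM in Transplant and 6.30, 6.22 and 6.58 in Adult libraries, against 15.004, 14.8 and 14.2 in Teratoma and 1478, 1293 and 1628 in Embryo libraries. Here the step was unequal: the change was -2.86 in the stem-cell-derived and -7.63 in the native pair, and the difference passed (adjusted p = 2.42e-07). Mest, a paternally expressed gene of the α/β-hydrolase fold, averaged 18.7 ± 8.80 FPKM in Transplant and 11.2 ± 3.42 in Adult, against 52.5 ± 12.2 in Teratoma and 485 ± 82.4 in Embryo. Slc38a4, an imprinted amino acid transporter gene, had 1.48, 1.06 and 1.99 FPKM in Transplant and 0.493, 0.622 and 0.177 in Adult libraries, against 43.1, 29.96 and 41.3 in Teratoma and 47.6, 40.9 and 45.5 in Embryo libraries, and its changes of -3.96 and -5.01 were closer to each other. Cdkn1c, the maternally expressed CDK inhibitor p57, stood outside this list, averaged 26.7 ± 6.69 FPKM in Transplant and 18.3 ± 8.26 in Adult, against 275 ± 37.1 in Teratoma and 573 ± 115 in Embryo and was lower in both pairs (adjusted p = 3.06e-05 and 1.35e-07).

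Oncofetal regulators, which act in fetal tissue and again in tumours, gave 0 higher and 7 lower of 11 tested genes (median -0.73), and 5 were shared, all under 3 scalings. Igf2bp1 and Igf2bp3 encode RNA-binding proteins of fetal growth messages. Igf2bp1 had 0.0972, 0.465 and 0.0845 FPKM in Transplant and 0, 0.0167 and 0 in Adult libraries, against 6.17, 3.36 and 4.13 in Teratoma and 15.2, 20.7 and 23.7 in Embryo libraries. Igf2bp3 had 1.26, 1.14 and 0.208 FPKM in Transplant and 0.491, 0.569 and 0.557 in Adult libraries, against 11.6, 3.98 and 6.14 in Teratoma and 22.3, 27.3 and 29.5 in Embryo libraries. Hmga2, an architectural chromatin protein, had 0.669, 2.21 and 0.230 FPKM in Transplant and 0.668, 0.318 and 0.746 in Adult libraries, against 7.38, 7.10 and 7.16 in Teratoma and 14.9, 18.2 and 41.8 in Embryo libraries. No postnatal library exceeded the 2.21 FPKM of Hmga2 in Transplant replicate 2 at any of these genes, and their adjusted p-values were at most 0.00279 in both pairs. Plag1, a zinc finger activator of Igf2, changed by -1.13 and -2.59 from low levels. A wider list of genes known to be turned down as postnatal growth slows had 0 higher and 19 lower of 25 (median -1.52), with 7 shared. Stmn1, which destabilizes microtubules, averaged 9.37 ± 1.94 FPKM in Transplant and 8.79 ± 3.08 in Adult, against 84.8 ± 9.62 in Teratoma and 239 ± 29.9 in Embryo. It changed by -3.06 ± 0.24 for Transplant against Teratoma and -4.66 ± 0.24 for Adult against Embryo (adjusted p = 1.39e-05 and 4.48e-08). Gpc3, an X-linked heparan sulphate proteoglycan whose loss causes overgrowth in humans, averaged 38.97 ± 5.48 FPKM in Transplant and 15.2 ± 0.779 in Adult, against 157 ± 28.6 in Teratoma and 318 ± 32.1 in Embryo. Tead2, a DNA-binding partner of YAP, and Nrk, an X-linked kinase, changed by -1.88 and -2.57 in the stem-cell-derived pair and -4.10 and -5.94 in the native pair.

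Enzymes that copy DNA methylation were lower in both pairs. Uhrf1, which recognizes hemimethylated DNA after replication, had 1.41, 1.18 and 2.73 FPKM in Transplant and 1.97, 1.69 and 0.780 in Adult libraries, against 19.9, 15.5 and 14.51 in Teratoma and 58.4, 55.5 and 49.7 in Embryo libraries. Dnmt1, the maintenance methyltransferase, averaged 3.89 ± 0.298 FPKM in Transplant and 2.48 ± 0.577 in Adult, against 17.3 ± 2.17 in Teratoma and 36.6 ± 3.46 in Embryo. Dnmt3a, a de novo methyltransferase, averaged 7.42 ± 1.03 FPKM in Transplant and 5.02 ± 0.681 in Adult, against 17.6 ± 1.96 in Teratoma and 27.4 ± 5.11 in Embryo. All 3 were shared under 3 scalings (adjusted p at most 0.00125 in either pair). The list of DNA methylation and Polycomb genes had 2 higher and 15 lower of 21, but its median moved from -0.66 with the deposited values to -0.26 with median-ratio scaling, and 5 of its genes were shared.

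**Figure D3:**
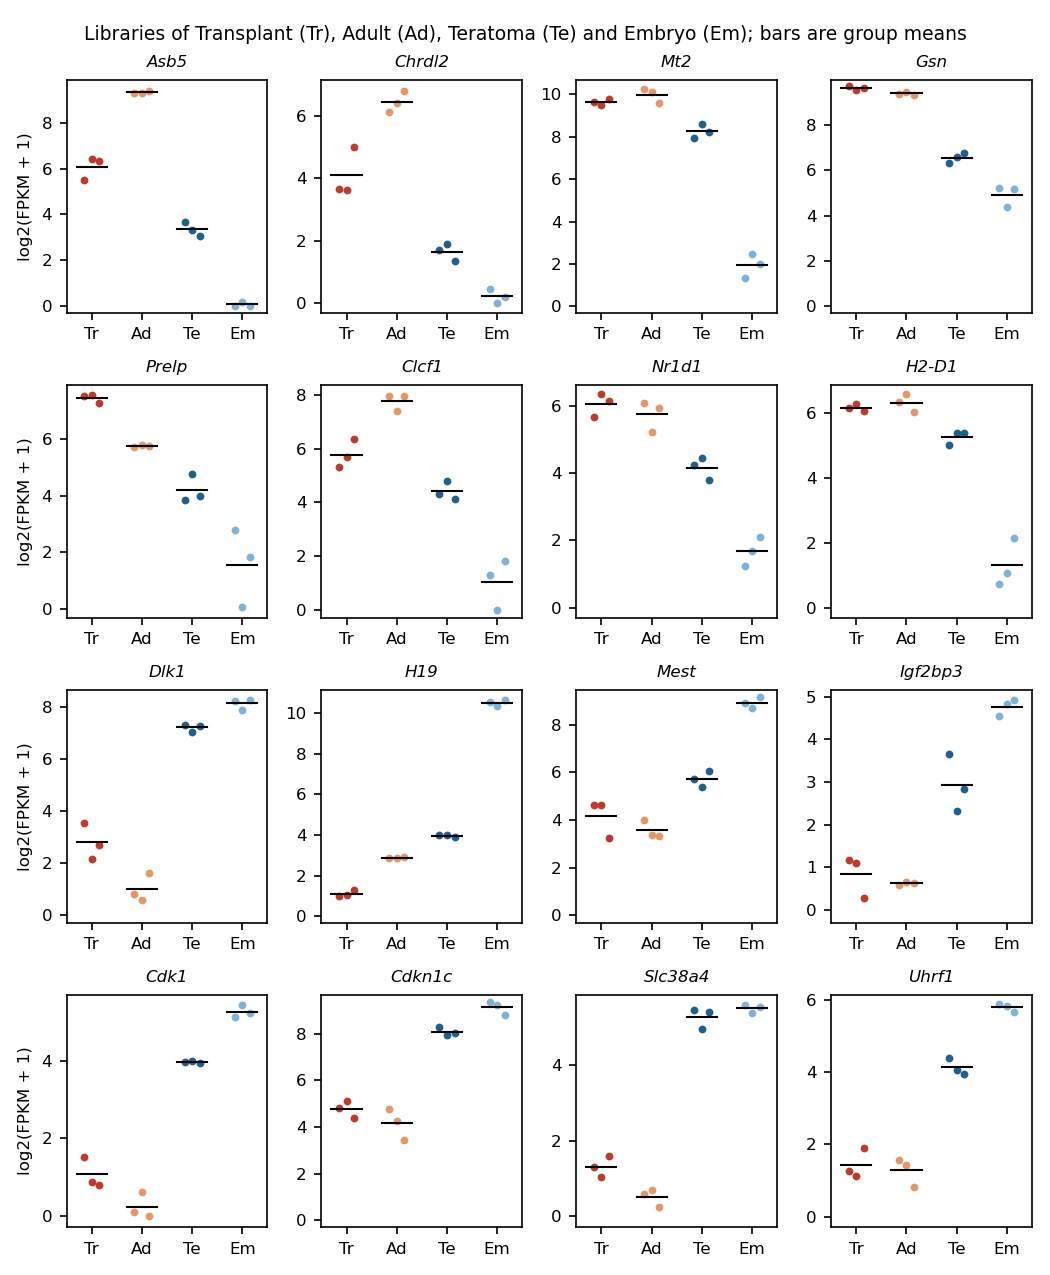
log2(FPKM + 1) of 16 genes in each library, with bars at the group means of 3 libraries. The upper 8 genes lay higher in all Transplant and Adult libraries than in all Teratoma and Embryo libraries, and the lower 8 genes lay lower.

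Several shared lower genes belong to other tissues or to early muscle. Col2a1, the main collagen of cartilage, had 0.140, 0.400 and 0.473 FPKM in Transplant and 0, 0.0618 and 0.283 in Adult libraries, against 30.1, 14.2 and 38.6 in Teratoma and 32.1, 44.8 and 58.3 in Embryo libraries. Col9a1, its partner collagen, was listed at 0 in 5 of the 6 postnatal libraries, against 3.60, 2.95 and 3.16 FPKM in Teratoma and 3.46, 5.56 and 9.64 in Embryo. Of 13 tested cartilage and bone genes 1 was higher and 9 were lower, 6 of them shared, and the FPKM sum of this list was 51.6 to 63.6 in Transplant and 41.4 to 53.8 in Adult, against 115 to 129.7 in Teratoma and 83.4 to 124 in Embryo libraries. Fabp7, a fatty acid-binding protein of neural progenitors, was listed at 0 in 5 postnatal libraries and at 0.277 FPKM in Transplant replicate 3, against 31.4, 13.2 and 14.7 in Teratoma and 13.2, 44.4 and 69.6 in Embryo. Its relative Fabp5 averaged 16.3 ± 1.41 FPKM in Transplant and 8.54 ± 4.32 in Adult, against 82.5 ± 23.7 in Teratoma and 262 ± 66.98 in Embryo. Actc1, the cardiac actin that developing skeletal muscle also makes, had 11.9, 13.7 and 21.3 FPKM in Transplant and 0.132, 1.01 and 0 in Adult libraries, against 57.8, 48.2 and 78.6 in Teratoma and 98.9, 132 and 77.4 in Embryo libraries. Its call for Transplant against Teratoma was lost with a pseudocount of 0.1 (adjusted p = 0.0537, lowest over the alternatives 0.000885). Fbn2, the fibrillin of developing microfibrils, had 14.9, 10.1 and 5.69 FPKM in Transplant and 0.274, 0.175 and 0.140 in Adult libraries, against 41.6, 39.4 and 44.8 in Teratoma and 84.9, 78.6 and 88.6 in Embryo libraries, and the larger change lay in the native pair (-6.15 against -2.02, adjusted p of the difference = 9.97e-06). Kcne1l, a potassium channel accessory subunit, was also shared, with 0.896, 0 and 0.151 FPKM in Transplant and 1.09, 0.573 and 0.691 in Adult libraries, against 18.4, 4.66 and 17.4 in Teratoma and 47.4, 47.8 and 45.8 in Embryo libraries. Agtr2, the type 2 angiotensin receptor, was at 16.02, 6.998 and 11.4 FPKM in Transplant and listed at 0 in all Adult libraries, against 30.1, 18.4 and 46.5 in Teratoma and 144, 108 and 139.8 in Embryo. With median-ratio scaling its stem-cell-derived pair no longer passed (adjusted p = 0.0513, lowest over the alternatives 0.0047).

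Epithelial and endodermal markers moved mostly with 1 developing group. Of 17 tested members 16 were lower and 4 shared, and their FPKM sum was 5.16 to 15.4 in Transplant and 3.97 to 6.17 in Adult, against 275 to 834 in Teratoma and 10.6 to 60.2 in Embryo. Of the 24 markers, 11 were listed at 0 in all 6 postnatal libraries. Such a gene could pass the filter of 1 FPKM in 3 libraries only through developing libraries, and so could not be called higher. The counts of lower epithelial and erythroid genes can thus be partly set by the filter. Ttr, the transthyretin gene of liver and yolk sac, was listed at 0 in each library but the Teratoma ones, where it had 216, 204 and 90.96 FPKM. Cldn4, a tight junction protein, was listed at 0 in all postnatal libraries, against 64.7, 85.7 and 15.8 in Teratoma and 0.497, 2.92 and 6.77 in Embryo, and its native pair lost the call without Adult 1, 2 or 3 or Embryo 2 or 3, where the numbers name replicates left out singly, and with library weights (adjusted p up to 0.102, range over the alternatives 0.000876 to 0.102). Erythroid markers summed to 0.811 to 1.33 in Transplant and 5.35 to 26.8 in Adult, against 13.5 to 58.6 in Teratoma and 387 to 2097 in Embryo, led by the embryonic globin Hbb-y at 116, 465 and 1188 FPKM in Embryo. Of 7 tested erythroid genes 6 were lower and none was shared, and of 13 erythroid genes with values 4 were listed at 0 in all postnatal libraries. Mural and smooth muscle markers had 1 higher and 8 lower of 11 (median -1.10), 4 of them shared, and summed to 281 to 308 in Transplant and 172 to 205 in Adult, against 436 to 560.2 in Teratoma and 236 to 355 in Embryo. Endothelial markers had 0 higher and 8 lower of 14, with 2 shared, neither of them under 3 scalings. Leukocyte markers had 0 higher and 3 lower of 14, with none shared. Of all tested genes 37.5% were lower and 7.21% shared lower, and the leukocyte markers did not exceed these shares. The part of epithelial, erythroid, mural, endothelial and leukocyte cells in the shared lower genes was not tested.

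Energy metabolism depended on the scaling. Of all genes tested, 37.5% were lower, 7.21% shared lower and 2.73% shared lower under 3 scalings, and the counts below stand beside these shares. Of 85 tested oxidative phosphorylation genes 76 were lower and none higher (median -1.002, -0.58 with median-ratio scaling). Of these 16 were shared, 4 of them under 3 scalings. The stem-cell-derived pair had 21 lower of the 85 (median -0.54) and the native pair 72 lower and 2 higher (median -1.52). Atp5k, an ATP synthase subunit, averaged 76.5 ± 11.95 FPKM in Transplant and 63.1 ± 7.77 in Adult, against 186 ± 12.003 in Teratoma and 300.2 ± 141 in Embryo (adjusted p = 0.00446 and 2.58e-05). Of 23 genes of glycolysis and lactate 3 were higher and 16 lower (median -0.94, -0.70 with median-ratio scaling), with 10 shared and 7 under 3 scalings. Eno1, the widely expressed enolase, averaged 32.8 ± 5.40 FPKM in Transplant and 17.2 ± 3.99 in Adult, against 78.2 ± 6.86 in Teratoma and 131 ± 25.3 in Embryo. Aldoc, the brain aldolase isozyme, was listed at 0 in all 6 postnatal libraries, against 8.18, 6.62 and 6.41 in Teratoma and 0.653, 3.27 and 2.02 in Embryo. Ribosomal protein genes had 52 lower and 0 higher of 81, but their median of -0.43 became -0.01 with median-ratio scaling and none of their 8 shared genes was shared under 3 scalings.

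The 101 shared higher genes were led by Asb5. Asb5, a SOCS box protein of the kind that joins ubiquitin ligases to their targets (chromosome 8 from 54529580 to 54587842), had 44.6, 84.7 and 80.2 FPKM in Transplant and 644, 633 and 681 in Adult libraries, against 11.8, 9.09 and 7.37 in Teratoma and 0, 0.142 and 0 in Embryo libraries. The groups did not overlap anywhere, and the order was Adult, Transplant, Teratoma and Embryo. Its changes were 2.73 ± 0.23 for Transplant against Teratoma and 9.29 ± 0.23 for Adult against Embryo (limma adjusted p = 2.32e-05 and 2.54e-10), and the pairs differed (adjusted p = 5.01e-07). Chrdl2, a secreted antagonist of BMPs listed among genes of quiescent mouse satellite cells (chromosome 7 from 100006172 to 100034728), had 11.7, 11.4 and 30.9 FPKM in Transplant and 68.6, 83.8 and 111 in Adult libraries, against 2.27, 2.73 and 1.54 in Teratoma and 0.369, 0 and 0.165 in Embryo libraries. Fgl2, a fibrinogen-like protein from the same quiescence list, had 19.8, 19.5 and 20.8 FPKM in Transplant and 55.3, 39.9 and 58.3 in Adult libraries, against 11.7, 13.1 and 11.5 in Teratoma and 0.169, 0.0452 and 0 in Embryo libraries. For Fgl2 the stem-cell-derived change was small (0.68 ± 0.18, adjusted p = 0.0183) beside the native one (5.59 ± 0.18), and the smaller one lost its call without Transplant 1 or 3 or Teratoma 1 or 3 and with a pseudocount of 0.1 (adjusted p up to 0.138, lowest 0.00259). Col5a3, a chain of the type V collagen that satellite cells lay down in their niche, averaged 74.7 ± 4.45 FPKM in Transplant and 39.8 ± 3.42 in Adult, against 17.1 ± 4.22 in Teratoma and 2.46 ± 1.07 in Embryo (adjusted p = 0.000148 and 2.42e-07). The quiescence list as a whole had 14 higher and 3 lower of 27 tested genes (median 0.42, against -0.34 for all genes), and 3 of them were shared higher. Itm2a, a membrane protein on the list, was instead shared lower with the deposited values, though not under all 3 scalings, and averaged 317 ± 42.8 FPKM in Transplant and 119.8 ± 19.6 in Adult, against 719.7 ± 156 in Teratoma and 566 ± 132 in Embryo. The list's median was -0.09 for Transplant against Teratoma and 0.93 for Adult against Embryo. Outside the lists, Cd82, a tetraspanin at the surface of muscle stem cells, and Thbd, which encodes thrombomodulin, were named after their values were seen. Cd82 had 146, 168 and 186 FPKM in Transplant and 176, 210.3 and 273 in Adult libraries, against 59.5, 90.9 and 86.1 in Teratoma and 12.4, 8.29 and 14.7 in Embryo libraries. Thbd had 32.4, 26.4 and 30.6 FPKM in Transplant and 23.5, 21.5 and 28.4 in Adult libraries, against 4.89, 7.38 and 11.4 in Teratoma and 2.37, 2.73 and 1.61 in Embryo libraries, and both genes kept the classes apart in every library.

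Metal and redox genes included shared higher members. Mt2, a metallothionein that binds zinc and copper (chromosome 8 from 94172664 to 94173568), had 797, 709 and 862 FPKM in Transplant and 1197, 1093 and 761 in Adult libraries, against 244, 387 and 297 in Teratoma and 1.55, 4.58 and 2.998 in Embryo libraries. The Embryo libraries stood far below the other 9, and the change was 1.37 ± 0.27 in the stem-cell-derived and 8.02 ± 0.27 in the native pair (adjusted p = 0.00433 and 3.91e-09). Its promoter is shown for its matches to TGCNCNC on either strand, which the capitals mark. This pattern is a loose form of the metal response element core, with any base allowed at N.
Mt2, chr8:94172368-94172667, plus strand: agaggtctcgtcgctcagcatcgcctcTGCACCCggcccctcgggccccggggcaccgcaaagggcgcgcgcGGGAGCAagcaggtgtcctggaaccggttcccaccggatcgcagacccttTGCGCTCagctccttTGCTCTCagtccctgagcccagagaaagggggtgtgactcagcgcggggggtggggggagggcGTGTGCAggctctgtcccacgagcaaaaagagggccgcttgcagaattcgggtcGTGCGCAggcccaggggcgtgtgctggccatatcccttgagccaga
It holds 6 of these pattern matches, and 0.331% of all matched promoters hold as many or more. At least 1 such match stands in 60.4% of all matched promoters and in 56.2% of the 73 of shared higher genes. Gpx3, the secreted glutathione peroxidase, averaged 238 ± 54.05 FPKM in Transplant and 324 ± 14.9 in Adult, against 71.4 ± 14.6 in Teratoma and 10.04 ± 5.61 in Embryo (adjusted p = 0.00594 and 4.78e-07). Gstm1, a glutathione transferase, averaged 41.1 ± 4.03 FPKM in Transplant and 66.7 ± 3.83 in Adult, against 23.7 ± 3.36 in Teratoma and 6.64 ± 3.26 in Embryo. The call of Gstm1 in the stem-cell-derived pair (adjusted p = 0.0444) was lost without Transplant 1, 2 or 3, Adult 1, 2 or 3, Teratoma 1, 2 or 3 or Embryo 3, with a pseudocount of 0.1, with no filter on low genes and with the replicate number as a block (adjusted p up to 0.13, lowest over the alternatives 0.0104). Of 26 tested genes of metal and antioxidant defence 12 were higher and 5 lower on average (median 0.51), with 4 shared higher and 1 shared lower. The pairs went apart on this list. Transplant against Teratoma gave 4 higher and 8 lower (median -0.36), and Adult against Embryo 14 higher and 4 lower (median 1.65).

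Clcf1, a secreted cytokine that signals through the CNTF receptor, had 38.5, 50.2 and 80.5 FPKM in Transplant and 247, 169 and 251 in Adult libraries, against 19.1, 26.6 and 16.5 in Teratoma and 1.47, 0 and 2.48 in Embryo libraries. The stem-cell-derived change of Clcf1 (1.36, adjusted p = 0.0318) was lost without Transplant replicate 2 or 3 or Teratoma replicate 1 or 3, and with a pseudocount of 0.1 or no filter (adjusted p up to 0.313, lowest 0.00529). Gsn, which encodes the actin-severing protein gelsolin, had 846, 740.2 and 807 FPKM in Transplant and 669, 713 and 644 in Adult libraries, against 78.1, 95.5 and 107 in Teratoma and 36.2, 19.8 and 34.7 in Embryo libraries. Its postnatal libraries ranged from 644 to 846 FPKM and its developing ones from 19.8 to 107, with changes of 3.09 ± 0.21 for Transplant against Teratoma and 4.48 ± 0.21 for Adult against Embryo (adjusted p = 5.79e-06 and 3.07e-08). Prelp, a leucine-rich matrix proteoglycan, had 183, 184 and 152 FPKM in Transplant and 51.2, 54.7 and 52.6 in Adult libraries, against 13.4, 25.9 and 14.99 in Teratoma and 5.98, 0.0589 and 2.56 in Embryo libraries. Igfbp6, a binding protein that prefers IGF-2, averaged 94.7 ± 21.3 FPKM in Transplant and 34.4 ± 4.51 in Adult, against 8.66 ± 3.96 in Teratoma and 2.63 ± 2.23 in Embryo, and its changes of 3.38 and 3.52 did not pass the test of a difference between origins (adjusted p = 0.882). Ecm1, a secreted matrix protein, averaged 72.2 ± 20.7 FPKM in Transplant and 30.9 ± 4.53 in Adult, against 21.03 ± 4.63 in Teratoma and 1.04 ± 1.53 in Embryo, and its stem-cell-derived call was lost without Teratoma replicate 1 and with a pseudocount of 0.1 (adjusted p = 0.0531 and 0.117, lowest 0.000825). Mmp2, a gelatinase, averaged 239.6 ± 70.2 FPKM in Transplant and 119 ± 13.2 in Adult, against 87.1 ± 6.95 in Teratoma and 59.1 ± 1.55 in Embryo. Mmp9, the other gelatinase, was a shared lower gene listed at 0 in 5 of 6 postnatal libraries, against 2.79, 2.19 and 5.34 in Teratoma and 1.48, 3.77 and 2.21 in Embryo.

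Markers of other connective tissue cells were counted beside these genes. Of 18 tested fibroblast and fibro-adipogenic markers 11 were higher and 5 lower on average (median 0.96). Transplant against Teratoma gave 10 higher and 0 lower of them (median 1.11), and Adult against Embryo 6 higher and 5 lower (median 0.22). Gsn and Dpt, the matrix protein dermatopontin, were shared. Dpt had 115, 125 and 109 FPKM in Transplant and 60.8, 68.7 and 64.6 in Adult libraries, against 29.96, 38.5 and 55.6 in Teratoma and 23.2, 23.5 and 14.9 in Embryo libraries. The FPKM sum of the 18 markers was 1521 to 1850.4 in Transplant and 849.9 to 954 in Adult, against 277 to 429.6 in Teratoma and 198 to 255 in Embryo libraries, and Gsn was the largest part of it. The defining marker Pdgfra went another way, with 36.4, 29.5 and 33.5 FPKM in Transplant and 7.36, 6.38 and 6.96 in Adult libraries, against 16.2, 16.9 and 25.2 in Teratoma and 27.3, 25.6 and 42.7 in Embryo libraries. Dpt and Pdgfra were named after their values were seen. Of 11 tested tendon markers 9 were higher and none lower (median 1.68), with 7 higher in the stem-cell-derived and 5 in the native pair, and with sums of 1645 to 1891 in Transplant and 484 to 542 in Adult, against 858 to 945 in Teratoma and 325 to 456 in Embryo. Egr1, an immediate early gene, was the most abundant of them. Comp, the cartilage oligomeric matrix protein of tendon, was the only shared one, with 46.1, 20.9 and 41.4 FPKM in Transplant and 11.98, 9.23 and 7.40 in Adult libraries, against 1.49, 6.40 and 4.93 in Teratoma and 1.47, 3.90 and 1.61 in Embryo libraries. Thbs4, a thrombospondin of tendon and muscle, averaged 366 ± 119 FPKM in Transplant and 24.2 ± 8.35 in Adult, against 30.6 ± 9.03 in Teratoma and 5.57 ± 2.18 in Embryo and did not separate the classes. The part of other cells in the shared higher genes was not tested.

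Immune and clock genes were also shared in small numbers. H2-K1 and H2-D1 encode MHC class I heavy chains, whose similar sequences can share reads, so each value is uncertain. H2-K1 had 46.2, 48.8 and 46.2 FPKM in Transplant and 91.6, 106 and 88.9 in Adult libraries, against 24.4, 29.9 and 17.9 in Teratoma and 1.52, 0 and 0.667 in Embryo libraries. H2-D1 had 69.7, 75.99 and 65.8 FPKM in Transplant and 78.8, 93.7 and 64.7 in Adult libraries, against 31.4, 40.7 and 40.9 in Teratoma and 0.667, 1.08 and 3.43 in Embryo libraries. In both the Embryo libraries were near 0 and the Teratoma libraries closer to the postnatal ones. The stem-cell-derived changes (0.97 and 0.89, adjusted p = 0.0302 and 0.0489) were lost for H2-K1 without Transplant 1, 2 or 3 or Teratoma 1 or 3, for H2-D1 without Transplant 1, 2 or 3, Adult 1, 2 or 3 or Teratoma 1, 2 or 3, and for both with a pseudocount of 0.1, and for H2-D1 also with no filter or a replicate block (adjusted p up to 0.381 and 0.162, lowest 0.00376 and 0.00525). The list of MHC class I and interferon genes had 16 higher and 4 lower of 37 on average (median 0.48) and no other shared member. Transplant against Teratoma gave 4 higher and 3 lower of them (median -0.20), and Adult against Embryo 19 higher and 2 lower (median 0.98). Serping1, the C1 inhibitor of the complement cascade, averaged 237 ± 20.5 FPKM in Transplant and 172 ± 10.1 in Adult, against 61.6 ± 9.37 in Teratoma and 12.9 ± 2.72 in Embryo and was called in each pair (adjusted p = 3.06e-05 and 3.44e-08). Of 21 complement and innate genes 13 were higher and 2 lower on average (median 0.99). In the stem-cell-derived pair 7 were higher and 5 lower (median 0.28), and in the native pair 10 and 0 (median 0.96). Il4ra, the shared receptor chain of IL-4 and IL-13, was called in both pairs, but the stem-cell-derived call was lost without Transplant 2 or 3 or Teratoma 1 or 3 (adjusted p up to 0.0956, lowest over the alternatives 0.00918).

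Nr1d1, the clock repressor REV-ERBα (chromosome 11 from 98767932 to 98775333), had 49.3, 81.4 and 69.4 FPKM in Transplant and 66.9, 36.04 and 60.5 in Adult libraries, against 17.9, 20.6 and 12.8 in Teratoma and 1.35, 2.21 and 3.28 in Embryo libraries. The lowest postnatal library was Adult replicate 2 and the highest developing one Teratoma replicate 2, with a clear gap between them, and the changes were 1.90 ± 0.30 for Transplant against Teratoma and 4.08 ± 0.30 for Adult against Embryo (adjusted p = 0.00101 and 5.08e-07). Rora, the activator that competes with it for the same sites, averaged 8.66 ± 0.549 FPKM in Transplant and 19.1 ± 3.76 in Adult, against 4.61 ± 1.56 in Teratoma and 1.98 ± 0.928 in Embryo, and its stem-cell-derived call (adjusted p = 0.0495) was lost without Transplant 1, 2 or 3, Adult 1, 2 or 3, Teratoma 1 or 3 or Embryo 1, with a pseudocount of 0.1, with no filter and with library weights (adjusted p up to 0.149, lowest over the alternatives 0.0147). Of 17 clock genes 9 were higher and none lower (median 0.58). Dio2, the deiodinase that makes active thyroid hormone (chromosome 12 from 90724552 to 90738438), had 29.7, 32.9 and 33.1 FPKM in Transplant and 27.99, 23.5 and 30.05 in Adult libraries, against 7.88, 7.12 and 4.83 in Teratoma and 0.248, 0.116 and 0 in Embryo libraries, with Transplant and Adult values overlapping. Glucocorticoid-induced genes had 12 higher and 0 lower of 19 (median 1.13), yet none was shared, and their medians were -0.04 for Transplant against Teratoma and 1.52 for Adult against Embryo.

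Heat shock and muscle genes gave a few shared higher members, though some muscle lists also held shared lower ones. The muscle fusion and differentiation list had 4 higher and 11 lower of 23 tested genes (median -0.70). None of them was shared higher and 4 were shared lower. The neuromuscular junction list had 4 higher and 3 lower of 10, with Chrnb1 shared higher and Erbb3 shared lower. Muscle fibre markers had 5 higher and 1 lower of 11, with Actn3 the only shared one. Bag3, a co-chaperone that guards sarcomere proteins, averaged 289 ± 37.1 FPKM in Transplant and 354 ± 10.4 in Adult, against 155 ± 18.1 in Teratoma and 58.7 ± 6.15 in Embryo. Cryab, a small heat shock protein, averaged 63.6 ± 8.51 FPKM in Transplant and 129 ± 11.6 in Adult, against 33.8 ± 5.36 in Teratoma and 9.86 ± 2.36 in Embryo. Hsph1, a large heat shock protein, changed by 0.95 and 1.01 (adjusted p = 0.00505 and 0.000964). Of 16 heat shock genes 11 were higher and 2 lower on average (median 0.72), beside 10.5% and 37.5% of all genes. The pairs differed on this list, with 8 higher and 0 lower in the stem-cell-derived pair (median 0.64). In the native pair 7 were higher and 5 lower (median 0.22). Hspa1a, Hspa1b and Dnajb1 were called higher in the stem-cell-derived and lower in the native pair. Dmd, which encodes dystrophin, averaged 3.70 ± 0.632 FPKM in Transplant and 10.9 ± 1.61 in Adult, against 1.65 ± 0.581 in Teratoma and 0.598 ± 0.0486 in Embryo. Chrnb1, the β subunit of the muscle acetylcholine receptor, averaged 43.9 ± 8.81 FPKM in Transplant and 61.5 ± 2.32 in Adult, against 24.6 ± 4.83 in Teratoma and 6.73 ± 1.52 in Embryo. The stem-cell-derived call of Dmd was lost without Transplant 2 or 3 or Teratoma 2 or 3 and that of Chrnb1 without Transplant 3 (adjusted p up to 0.0793 and 0.0538, lowest over the alternatives 0.00495 and 0.00237). Actn3, the fast-fibre α-actinin, averaged 11.4 ± 2.76 FPKM in Transplant and 16.4 ± 1.13 in Adult, against 4.75 ± 1.86 in Teratoma and 1.45 ± 1.32 in Embryo and lost its stem-cell-derived call without Transplant 1, 2 or 3 or Teratoma 1 or 3, with a pseudocount of 0.1 and with no filter (adjusted p up to 0.141, lowest 0.00667). Muscle fibre markers summed to 85.4 to 109 FPKM in Transplant and 32.3 to 45.2 in Adult, against 60.5 to 132 in Teratoma and 9.54 to 11.8 in Embryo, so the Transplant and Teratoma ranges overlapped.

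**Figure D4:**
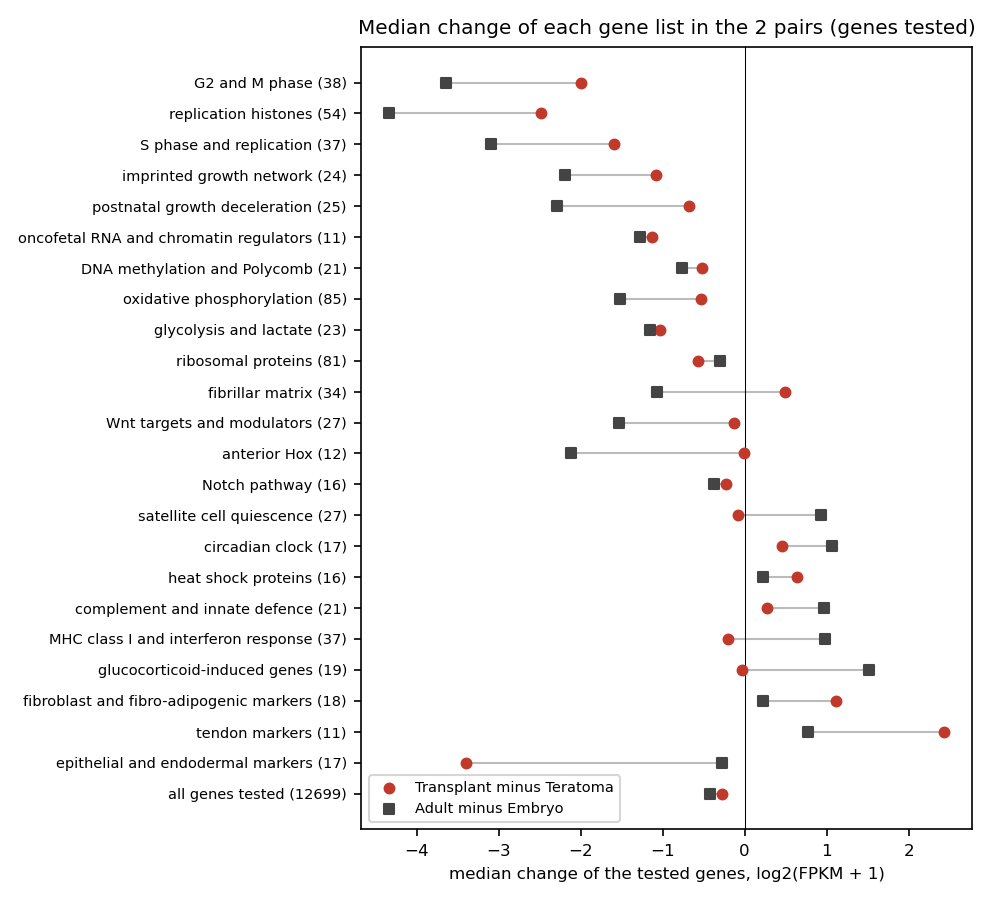
Median change of the tested genes of 23 lists and of all genes, for Transplant minus Teratoma (red circles) and Adult minus Embryo (grey squares), on the log2(FPKM + 1) scale. Cell cycle lists lay far to the left in both pairs, while anterior Hox and epithelial markers moved in 1 pair. The medians of all genes, -0.28 and -0.42, are plotted as their own row and were not subtracted from the lists.

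Several genes of the signalling lists were shared. Bmp4, a BMP ligand, had 19.4, 17.1 and 20.7 FPKM in Transplant and 34.9, 31.02 and 49.3 in Adult libraries, against 7.30, 8.77 and 7.44 in Teratoma and 3.11, 7.05 and 5.53 in Embryo libraries and was higher in both pairs (adjusted p = 0.00552 and 3.28e-06). Nog, the BMP antagonist noggin, had 1.38, 0.744 and 1.63 FPKM in Transplant and 0, 0.521 and 0.972 in Adult libraries, against 12.8, 13.5 and 11.1 in Teratoma and 14.49, 21.8 and 6.67 in Embryo libraries and was lower in both (adjusted p = 0.00067 and 1.87e-05). Tgfbr3, the TGF-β co-receptor betaglycan, averaged 42.1 ± 8.55 FPKM in Transplant and 31.2 ± 2.38 in Adult, against 15.3 ± 2.15 in Teratoma and 16.1 ± 7.14 in Embryo. The BMP and TGF-β response list as a whole had 7 higher and 9 lower of 25 (median -0.27), with 2 shared each way. Its members Id1 and Smad6 were lower on average and in the native pair. Id2 and Id3 were called higher in the stem-cell-derived and lower in the native pair. A change in BMP signalling was not tested. Egfr, the EGF receptor, was higher by 1.00 and 1.23, and Fgfr2, an FGF receptor, was lower with changes of -2.01 and -1.95 (adjusted p at most 0.00519 for both genes and pairs). Igfbp2, an IGF-binding protein, was at 8.65, 8.53 and 7.12 FPKM in Transplant and listed at 0 in all Adult libraries, against 32.7, 61.2 and 29.2 in Teratoma and 31.7, 32.8 and 47.9 in Embryo. Sfrp4, a secreted Wnt inhibitor, averaged 13.3 ± 3.34 FPKM in Transplant and 8.90 ± 1.12 in Adult, against 2.15 ± 0.281 in Teratoma and 1.20 ± 0.244 in Embryo, with changes of 2.16 and 2.17 in the pairs (adjusted p of the difference = 0.987). Itga6, a laminin receptor subunit, was a shared lower gene at 2.10 ± 0.615 FPKM in Transplant and 4.18 ± 0.409 in Adult, against 18.3 ± 3.34 in Teratoma and 15.4 ± 1.95 in Embryo. Nid2, a basement membrane linker, was another at 17.3 ± 4.89 FPKM in Transplant and 7.67 ± 1.35 in Adult, against 36.5 ± 4.73 in Teratoma and 59.6 ± 8.01 in Embryo. Of 27 Wnt genes 2 were higher and 17 lower on average (median -0.93), with 1 shared higher and 4 shared lower, none of the lower ones under 3 scalings. Transplant against Teratoma gave 1 higher and 5 lower of them (median -0.13), and Adult against Embryo 2 higher and 17 lower (median -1.53). The shared lower ones included Wif1, a secreted Wnt inhibitor, at 0, 0.241 and 0.119 FPKM in Transplant and 0, 0.678 and 1.44 in Adult, against 9.36 ± 2.60 in Teratoma and 3.61 ± 1.63 in Embryo. Quantile normalization ended its call in the native pair (adjusted p = 0.0585, lowest 0.00142). Nkd1, an inhibitor of the pathway, and Tcf7l1, a repressor at Wnt targets, changed by -1.08 and -0.65 in the stem-cell-derived and -2.40 and -2.23 in the native pair. The stem-cell-derived calls of both were lost with median-ratio scaling and quantile normalization, and without Transplant 3, or for Nkd1 also Teratoma 2 or 3 (adjusted p up to 0.0931 and 0.122, lowest 0.0103 and 0.00664). Of 16 Notch pathway genes 2 were higher and 7 lower (median -0.27) with none shared, shares near the 10.5% and 37.5% of all genes.

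Anterior Hox genes, which mark position along the body axis, were not shared. Of 12 tested anterior Hox genes 10 were lower on average, with medians of -0.01 for Transplant against Teratoma and -2.12 for Adult against Embryo. Of 34 fibrillar matrix genes 2 were higher and 16 lower, beside 10.5% and 37.5% of all genes, and their medians pointed in opposite directions, 0.49 in the stem-cell-derived and -1.07 in the native pair. Fbn2 was the single shared one.

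Some genes moved in opposite directions. Among genes called for the difference between origins and in both pairs, with no overlap of libraries in either pair and at least 5 FPKM in a group, 95 were higher in Transplant than in Teratoma but lower in Adult than in Embryo, and 326 were the reverse. Fn1, the matrix glycoprotein fibronectin, had 529, 557 and 311 FPKM in Transplant and 15.4, 19.2 and 18.6 in Adult libraries, against 155, 270.5 and 222 in Teratoma and 225, 242 and 272 in Embryo libraries. Transplant lay highest and Adult lowest, with changes of 1.10 ± 0.24 for Transplant against Teratoma and -3.72 ± 0.24 for Adult against Embryo. Mstn, the muscle growth inhibitor myostatin, had 7.22, 4.28 and 5.69 FPKM in Transplant and 0.113, 0.111 and 0 in Adult libraries, against 0.826, 0.705 and 0.197 in Teratoma and 12.01, 29.5 and 5.87 in Embryo libraries. Osr1, a transcription factor of connective tissue progenitors, averaged 9.85 ± 1.37 FPKM in Transplant and 1.33 ± 0.508 in Adult, against 2.80 ± 1.05 in Teratoma and 24.7 ± 4.02 in Embryo. Fibin, a secreted factor named for fin bud initiation in zebrafish, and Nov, a matricellular CCN protein, changed by 2.24 and 1.87 in the stem-cell-derived and by -3.73 and -2.57 in the native pair. On the other side, Procr, the endothelial protein C receptor, had 1.48, 1.68 and 3.97 FPKM in Transplant and 205, 162 and 92.4 in Adult libraries, against 25.1, 16.6 and 20.1 in Teratoma and 0.816, 0.179 and 0.771 in Embryo libraries. Hmox1, haem oxygenase 1, had 65.8, 112 and 105 FPKM in Transplant and 1111, 1028 and 1322 in Adult libraries, against 233, 195 and 250.5 in Teratoma and 16.1, 10.5 and 20.1 in Embryo libraries. Srxn1, which repairs oxidized peroxiredoxins, had 13.2, 32.96 and 36.996 FPKM in Transplant and 326, 274 and 286 in Adult libraries, against 102, 73.7 and 61.2 in Teratoma and 2.49, 0.302 and 1.88 in Embryo libraries. In these genes Adult lay highest and Embryo lowest, with Transplant below Teratoma. Cxcl5, a neutrophil chemokine, was at 0.618, 0.165 and 1.60 FPKM in Transplant and 11.2, 13.8 and 7.08 in Adult, against 31.03, 23.7 and 20.3 in Teratoma and 0 in all Embryo libraries. Cyp2f2, a cytochrome P450, had 0.478, 0.367 and 1.10 FPKM in Transplant and 14.3, 7.55 and 4.93 in Adult libraries, against 31.7, 34.9 and 10.3 in Teratoma and 0.291, 0 and 0 in Embryo libraries. For these 10 genes the difference between origins had adjusted p-values of at most 3.70e-05.

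**Figure D5:**
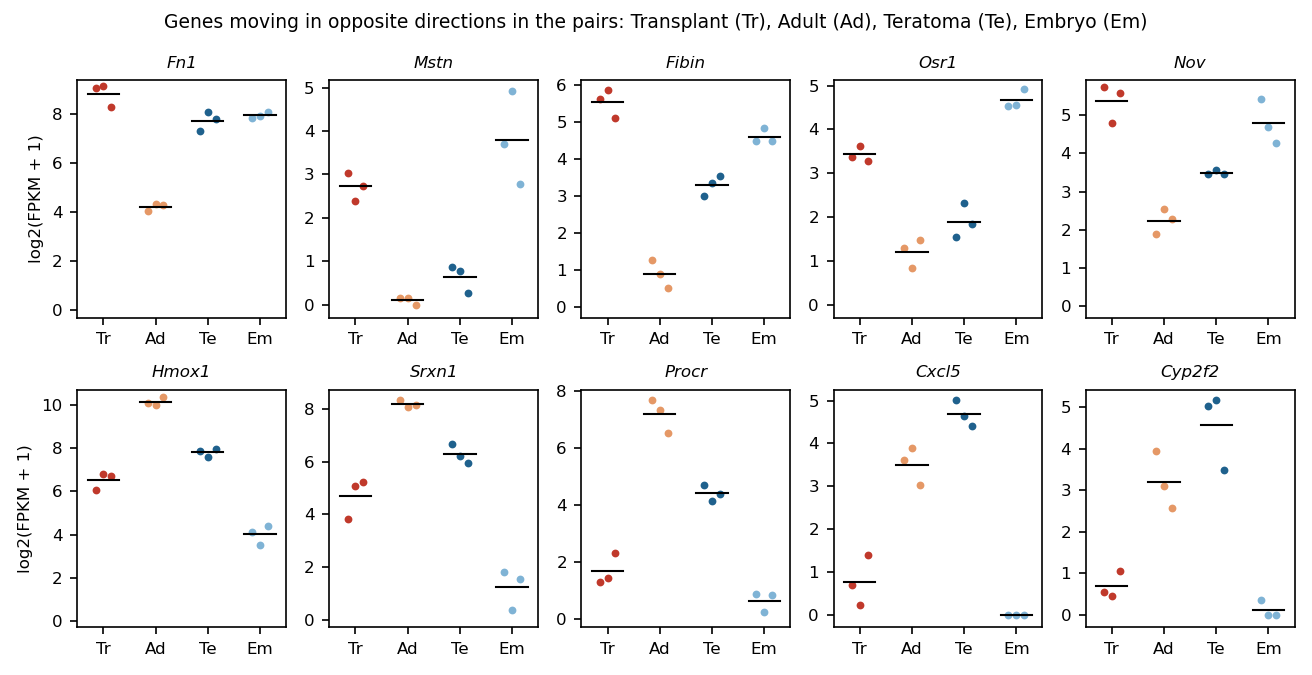
log2(FPKM + 1) in each library for the 10 genes with the largest opposed changes, with bars at the group means of 3 libraries. In the upper row Transplant lies above Teratoma and Adult below Embryo, and in the lower row Transplant lies below Teratoma and Adult above Embryo.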

How the data were processed

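Per the labels' protocols, RNA was purified with RNeasy and DNase I, and libraries were prepared with a stranded SMARTer Pico kit for total RNA. The submitters' processing notes name mm10, CASAVA 1.8.2, TopHat 0.7, Cufflinks 2.2.1.0 and Partek, without roles. The authors deposited 1 table of FPKM with 23746 gene symbol entries. The sources used here give neither annotation nor strand setting.

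The 702 entries of 240 repeated symbols were summed, giving 23284 symbols. The 12699 genes that reached 1 FPKM in 3 or more libraries were fitted on log2(FPKM + 1) with limma 3.58.1 in R 4.3.3, using 4 group means, an intensity trend and 8 residual degrees of freedom. Adjusted p-values are Benjamini-Hochberg over all tested genes. The members and lists were chosen with earlier results of these data known. Named genes were the 6 sort and muscle regulator genes, the 15 largest shared changes each way with the higher class at 5 FPKM or more, up to 4 shared genes per list, up to 2 called genes per list of other cells, the 5 largest opposed differences each way, and genes stated as named after their values were seen. The rankings by size skipped histone, ribosomal protein, small RNA and predicted genes. Some genes that this rule names are not reported here. The procedure was tested on simulated data. FPKM carry no depth, so intervals for single values are not given, and a listed 0 may be a failed estimate. Same-numbered replicates of different groups did not deviate together (correlations of -0.0951 to 0.0956), so no pairing was used. Alternatives were 2 other scalings, other pseudocounts and filters, an additive model, a fold threshold, isolated zeros as missing, library weights, and each library left out.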

Additional observations from a re-analysis of the deposited data

Results flagged for a closer look

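The change of Transplant against Teratoma minus that of Adult against Embryo was taken on the log2(FPKM + 1) scale. It passed limma's test of the difference itself at an adjusted p under 0.05 for 86 named genes. Of all 12699 genes tested, 4944 passed (38.9%). The 86 genes were named for other reasons than this difference except the 10 with opposed changes. Most were picked for large changes, so their number is not set against the share of all genes. The values depend on the pseudocount where a group is listed at 0. Shared lower genes with the larger change in the native pair had differences of Agtr2 5.67, H19 4.78, Actc1 4.34, Fbn2 4.13, Mest 3.79, Ccne1 3.42, Nrk 3.37, Igfbp2 3.10, Dlk1 2.72, Fabp5 2.61, Ube2c 2.34, Birc5 2.32, Gpc3 2.32 and Tead2 2.22. Further differences of this kind were Igf2bp1 2.18, Mcm6 2.13, Cdk1 2.13, Hist1h2ak 2.12, Igf2bp3 2.05, Mcm2 1.91, Top2a 1.90, Uhrf1 1.81, Hmga2 1.78, Nid2 1.74, Hist1h1b 1.67, Cdkn1c 1.63, Eno1 1.62 and Stmn1 1.60. Smaller ones were Tcf7l1 1.58, Dnmt1 1.55, Plag1 1.46, Nkd1 1.32, Tcf12 1.16, Pold2 1.12, Dnmt3a 1.08, Itm2a 1.05 and Slc38a4 1.05. Shared lower genes with the larger change in the stem-cell-derived pair had Cldn4 -3.68, Wif1 -1.73, Aldoc -1.53 and Itga6 -0.99. 

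Shared higher genes with the larger change in the native pair had differences of Mt2 -6.65, Asb5 -6.56, Clcf1 -5.38, H2-K1 -4.93, Fgl2 -4.91, H2-D1 -4.10, Chrdl2 -3.77, Gpx3 -3.34, Cd82 -3.03, Cryab -2.71, Dio2 -2.52, Ecm1 -2.49, Gstm1 -2.46 and Chrnb1 -2.22. Further ones were Nr1d1 -2.18, Dmd -2.05, Rora -1.96, Actn3 -1.82, Serping1 -1.72, Bag3 -1.68, Col5a3 -1.52, Bmp4 -1.50, Gsn -1.39, Il4ra -1.34 and Thbd -1.13. Genes called in opposite directions in the pairs had Procr -9.28, Srxn1 -8.54, Hmox1 -7.44, Cxcl5 -7.42, Cyp2f2 -6.95, Fibin 5.97, Mstn 5.80, Osr1 5.02, Fn1 4.82 and Nov 4.44. Named genes that were not shared had Hbb-y 7.41, Ttr -7.32, Myod1 -4.73, Pdgfra 2.79, Myog 2.70, Itga7 -2.52, Thbs4 1.58, Myf5 -1.57, Pax7 1.40 and Vcam1 -1.01.

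Single libraries stood apart from the other 5 of their class by Dixon's criterion for 8 named values of log2(FPKM + 1), where chance gives about 1 in 20 groups tested. These were Fabp7 in Transplant replicate 3 (postnatal class) at 0.353, Slc38a4 in Teratoma replicate 2 (developing class) at 4.95, Igf2bp1 in Transplant replicate 2 (postnatal class) at 0.551, Hmga2 in Transplant replicate 2 (postnatal class) at 1.68, Atp5k in Embryo replicate 2 (developing class) at 8.85, Mmp9 in Adult replicate 2 (postnatal class) at 0.28, Col9a1 in Transplant replicate 1 (postnatal class) at 0.0838 and Fn1 in Teratoma replicate 1 (developing class) at 7.28. Each class holds different groups, so the gap can also be one between groups. For Fabp7, Mmp9 and Col9a1 the other 5 libraries were listed at 0, so any value above 0 met the criterion. No excess over the rate of chance is claimed for the 8 values.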

How the results depend on the processing

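With median-ratio scaling 2738 genes were higher and 2807 lower in postnatal libraries, 922 and 1208 for Transplant against Teratoma, and 3284 higher for Adult against Embryo. The separating genes were then 455 and 728 and the shared ones 241 and 432. Quantile normalization gave 2620 and 2661, 1096 and 1309, and 3038 and 3125 for these comparisons, with 447 and 704 separating and 252 and 454 shared genes. The lower genes shared under all 3 scalings numbered 347, a count added after the data were seen. Why the scalings differ was not tested. Requiring a mean of 5 FPKM, which tests fewer genes, gave 2897 lower genes for the classes, 2782 for Adult against Embryo and 908 separating. A model of 2 classes plus origin, whose residuals hold the difference between origins, gave 736 higher genes and no values for the pairs. A log2 change of at least 1 left 575 and 2114 genes for the classes and 335 and 1288 for Transplant against Teratoma. Leaving out 1 library gave 1159 to 1413 higher and 4221 to 4845 lower genes for the classes, 325 to 646 and 1199 to 2639 for Transplant against Teratoma, 1724 to 2056 and 4123 to 4744 for Adult against Embryo, 4247 to 5110 for the difference between origins, 163 to 217 and 1409 to 1667 separating, and 77 to 113 and 594 to 1029 shared genes. A fit with the replicate number as a block, although the numbers do not pair the samples, gave 91 and 804 shared genes, 1270 and 4603 for the classes, 453 and 2013 for Transplant against Teratoma, 1939 and 4612 for Adult against Embryo and 4684 for the difference. The average change of Nov reversed to 0.0347 with median-ratio scaling and 0.0634 with quantile normalization, that of Cxcl5 to 0.77 with a pseudocount of 0.1 and 0.0609 with median-ratio scaling, and that of Cyp2f2 to 0.33 with a pseudocount of 0.1. The cause was not tested. Of 2173 average changes of named genes between the classes over the alternatives, 2127 kept their direction and side of the threshold. These values do not cover the calls within each pair, which were less stable. Of the 101 shared higher genes 69 stayed shared in all 12 leave-one-out fits, and of the 915 shared lower genes 502 did. Depth is unknown, so small values at few FPKM cannot be bounded.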
